A study of Mus musculus with 16 samples.

Results

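The m6A peaks of mouse peri-infarct cortex taken directly after 2 h of occlusion of the middle cerebral artery, without reperfusion (MCAO/R-0 h, "Re-0 h" in the plots), were compared with those of sham-operated mice (Sham). Peaks of the 2 Sham and 2 MCAO/R-0 h immunoprecipitation lists were merged into a region where they had at least 1 exonic base of a strand in common. A region was called gained where both MCAO/R-0 h lists and neither Sham list held it, and lost in the opposite case. Of 39362 regions, 1487 were gained and 732 were lost, 2219 in all. The 4 lists held 82842 of the 169564 peaks of the 8 lists of the series.

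The mice were male C57BL/6J animals, 6 to 8 weeks old at surgery and 6 to a group, without a transgene. In MCAO/R-0 h a nylon thread closed the artery for 2 h, and Sham mice had the same operation without the thread. Each group had 2 immunoprecipitation and 2 input libraries, and how mice were combined into libraries is not given in the sources used here, so the spread between replicates may be partly technical. Inputs were not analysed. A list holds peak positions and a score whose scale is not defined, with no counts, so depth is unknown, and more methylation, more RNA, and a change in the share of cells that carry a transcript cannot be told apart.

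N6-methyladenosine (m6A) is the most common internal modification of messenger RNA. A nuclear complex around METTL3 and METTL14 writes it on adenosines within the RRACH motif (R is G or A, H is A, C or T in the sequences here), the demethylases FTO and ALKBH5 can remove it, and YTH-domain proteins bind it and alter splicing, translation or decay of the transcript. It is most frequent around stop codons and in long exons. In neurons it is known from transcripts of synaptic proteins and from the short-lived immediate early transcripts that neuronal activity and ischaemia induce within minutes.

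The sequences below were read from GENCODE M39 transcripts on GRCm39 and stand for the regions on which the results turn: leading gained regions in Sema3a (chr5:13649238-13649298, plus strand), Pnn (chr12:59118216-59118276, plus strand) and Ppig (chr2:69579329-69579389, plus strand), and leading lost regions in Epha4 (chr1:77483773-77483833, minus strand), Tcf20 (chr15:82737512-82737572, minus strand) and Kmt2e (chr5:23703200-23703260, plus strand). Capitals mark an RRACH site inside the region, GGACT where the region holds one and otherwise the site nearest its centre.
Sema3a, coding sequence: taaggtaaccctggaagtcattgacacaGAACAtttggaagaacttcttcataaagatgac
Pnn, coding sequence: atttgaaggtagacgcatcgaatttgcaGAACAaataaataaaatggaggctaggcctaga
Ppig, coding sequence: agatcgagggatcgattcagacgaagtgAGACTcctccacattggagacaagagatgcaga
Epha4, coding sequence: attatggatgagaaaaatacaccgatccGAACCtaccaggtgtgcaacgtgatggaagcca
Tcf20, coding sequence: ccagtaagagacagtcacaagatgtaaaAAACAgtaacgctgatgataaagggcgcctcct
Kmt2e, coding sequence: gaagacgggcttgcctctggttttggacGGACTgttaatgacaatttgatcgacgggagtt

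Regions listed in all 4 libraries whose score rank differed between the groups are shown, as examples that the results below describe, by short stretches of the 3' UTR of Hspa1a (chr17:35188585-35188609, minus strand), Sik1 (chr17:32065131-32065155, minus strand), Egr2 (chr10:67377244-67377268, plus strand) and Klf4 (chr4:55527792-55527816, minus strand), which ranked higher in MCAO/R-0 h, and of Eif5b (chr1:38090866-38090890, plus strand), which ranked lower. Capitals mark GGACT, which each of these 5 regions held.
Hspa1a, 3' UTR: ctttgtgtttGGACTctcccctggg
Sik1, 3' UTR: gatggtttccGGACTcaaaagccaa
Egr2, 3' UTR: taatggcttgGGACTgacttggggg
Klf4, 3' UTR: gaacatgcccGGACTtacaaaatgc
Eif5b, 3' UTR: ggacgctgatGGACTtaggtgtata

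The first question was how many regions separated the groups. The Sham lists held 18775 and 20152 peaks and the MCAO/R-0 h lists 19837 and 24078, a mean of 19464 ± 974 (SD, n = 2) and 21958 ± 2999 (SD, n = 2). The gained regions made up 3.78% of all regions and lay in 1367 genes, and the lost regions made up 1.86% and lay in 678 genes, with 103 genes in both sets, 7.53% of the former and 15.2% of the latter. The same 4 lists can be divided in 2 mixed ways, each with 1 list of either group on both sides. The replicates numbered 2 shared 1493 regions (3.79%) that those numbered 1 lacked, and the reverse gave 728 (1.85%). The pair of Sham replicate 1 and MCAO/R-0 h replicate 2 had 1187 (3.02%) of its own, and the opposite pair had 768 (1.95%). By group 2219 regions differed, against 2221 and 1955 by the mixed divisions. The larger side was in all 3 divisions the one with MCAO/R-0 h replicate 2, the longest list. An exact permutation test of 2 lists against 2 cannot go below p = 0.333, so the counts of the mixed divisions are given in place of a p.

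With the 18775 highest-scoring peaks of each list, 1182 regions were gained and 819 lost, 2001 by group against 1866 and 1795 by the mixed divisions. With the higher-scoring 50% of each list, 1125 regions differed by group against 1058 and 892. When 1 list was left out, so that one side rested on a single list, the gained regions numbered from 2761 without Sham replicate 1 to 9584 without MCAO/R-0 h replicate 1, and the lost regions from 1320 without MCAO/R-0 h replicate 1 to 6229 without Sham replicate 1.

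**Figure D1:**
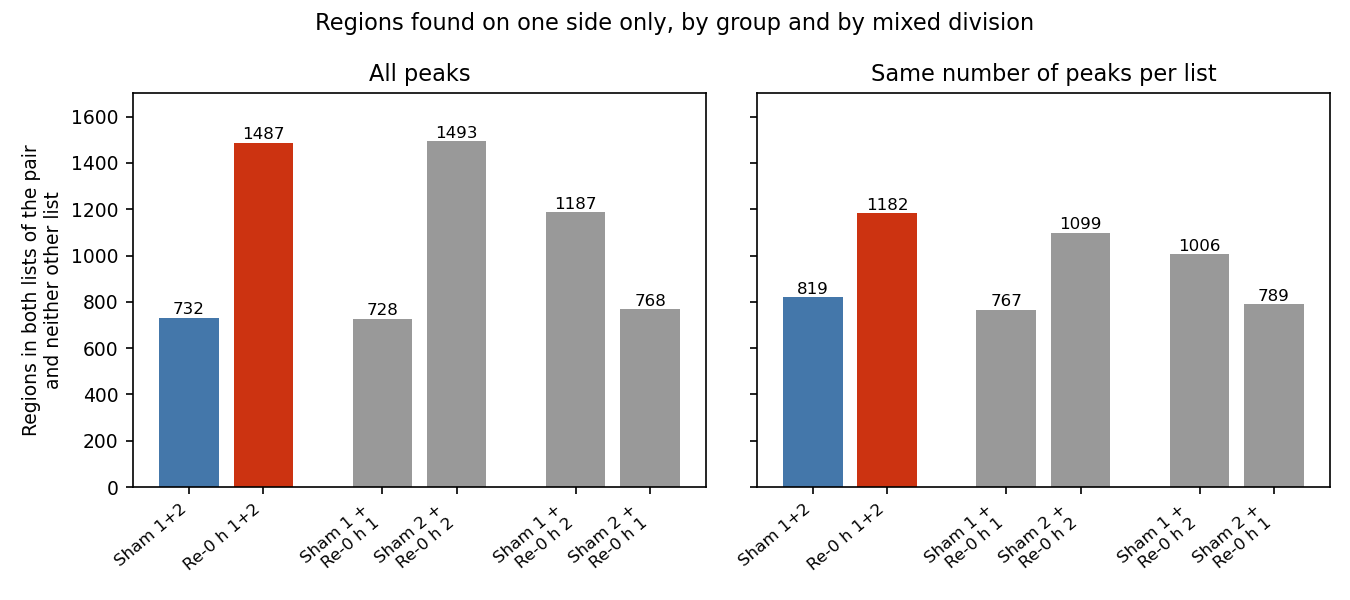
Number of regions (vertical axis) held by both lists of a pair and by neither of the other 2, for the division by group (coloured) and the 2 mixed divisions (grey), with all peaks on the left and the 18775 highest-scoring peaks of each list on the right. The gained bar (1487) stands level with the grey bar of the replicates numbered 2 (1493), and with lists of equal length the gained bar (1182) is the tallest.

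The 10 protein-coding genes with the highest gained regions ranged from a guidance cue and RNA-binding proteins to ion channels. A region is ranked here by its percentile, the percentage of peaks in the same list with a lower score. In Sema3a, a secreted repulsive guidance cue, the region reached percentiles of 97.4% and 96.7% in MCAO/R-0 h replicates 1 and 2, the order used throughout, and was in neither Sham list. It spanned 275 nt of the last exon (chr5:13649116-13649390), 316 nt before the stop codon, and was found again in 3 of the 4 later lists. Sema3a itself was marked in every library, with 4 and 5 peaks in Sham and 3 and 6 in MCAO/R-0 h, and the closest of the Sham peaks was 100 nt of exon away. The highest rank of all, 99.9% in both MCAO/R-0 h lists, was that of a 75-nt region of Prr14l.
Pnn, which encodes the splicing and adhesion protein pinin, held a gained region at 94.9% and 95.3%. Rbm25, a splicing factor, held one at 94.6% and 94.7%, and Ppig, a nuclear cyclophilin that binds splicing proteins, one at 98.9% and 94.3%. Rbm26, an RNA-binding protein, reached 92.2% and 92.9%. All of these genes had other peaks in both Sham lists, with a Sham peak adjoining the region of Pnn and at 75 to 250 nt of exon from those of Rbm25, Ppig, Rbm26 and Prr14l. The leading genes also included Catspere2 (95.8% and 98.0%, 5' UTR), a subunit of the sperm calcium channel, Hecw1 (91.4% and 94.9%), a ubiquitin ligase, and Kcna2 (91.3% and 94.8%, 3' UTR), the potassium channel Kv1.2. The percentage of gained regions ranked above 90% in both lists was 1.28% (19 regions).

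Among protein-coding genes, the 10 highest lost regions all lay in coding sequence. Epha4, a receptor for ephrins that repels axons, lost a 75-nt region of an internal exon that stood at 95.6% and 93.8% in the Sham lists (chr1:77483761-77483835), with the nearest MCAO/R-0 h peak 2624 nt of exon away. The gene kept 4 peaks in each MCAO/R-0 h list. Cep170, a centrosomal protein, held the highest lost region, at 94.9% and 97.9%, and Btbd8 held one at 96.4% and 94.3%. Ppp1r9a, which encodes neurabin 1 of the dendritic spine, reached 94.6% and 92.6%, and Tcf20, a transcriptional coregulator, 93.5% and 90.6%.
Sel1l, a cofactor of the ubiquitin ligase that clears misfolded proteins from the endoplasmic reticulum, held a lost region at 91.9% and 90.4%, Thoc2, of the mRNA export complex, at 91.6% and 89.1%, and the chromatin regulator Kmt2e at 89.9% and 88.9%. Arrdc3, an arrestin-like protein, followed at 88.9% and 88.1%, and Fam193a at 87.4% and 92.7%. An MCAO/R-0 h peak adjoined the lost region of Kmt2e. Such a peak lay 50 to 175 nt of exon from those of Btbd8, Fam193a, Ppp1r9a, Arrdc3, Thoc2 and Cep170. In Tcf20 and Sel1l it was 850 and 1250 nt away. The lost regions of Cep170, Btbd8, Tcf20 and Arrdc3 were present in all 4 later lists, and those of Ppp1r9a, Sel1l and Fam193a in none. Ranks above 90% in both lists were held by 7 lost regions (0.956%), and on the mixed divisions by 9 and 10 and by 2 and 31 regions, so that the number by group lay between those of the mixed divisions.

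Most gained and lost regions were of low rank. The lower of the percentiles in the 2 lists had a median of 28.6% for gained and 32.7% for lost regions, against 63.5% for the 6368 regions of all 4 lists and 25.7% to 36.0% for the 4 sides of the mixed divisions. A peak of the other group lay within 100 nt of exon for 24.0% of gained and 27.3% of lost regions. In 22.6% of gained regions the gene had no Sham peak at all, and in 12.3% of lost regions no MCAO/R-0 h peak, against 13.7% to 20.6% on the mixed divisions. In 102 genes 2 or more regions were gained, and in 50 genes 2 or more were lost. Fat1, an atypical cadherin, and Zfhx4, a zinc finger homeobox factor, held 4 each, and 13 further genes held 3, among them the latrophilin Adgrl3, the chaperonin-like Bbs12 and the ciliary gene Cep126. Akap9 and Syne1, which encode large scaffold proteins, Rev3l, a translesion DNA polymerase, and Zfp462 held 3 lost regions each.

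Genes with peaks in both lists of one group and none in the other numbered 529 (4.49% of the 11789 genes with a peak) for MCAO/R-0 h and 193 (1.64%) for Sham. The mixed divisions gave 508 and 185, and 316 and 216. The leading protein-coding genes of MCAO/R-0 h were Car10, a carbonic anhydrase-related protein of synapses, with a 400-nt 3' UTR region at 94.2% and 90.2%, the cyclophilin-like Ppil4 (85.2% and 87.4%), Atp6v1g2, a neuronal subunit of the vesicular proton pump (83.4% and 83.7%), Cab39, a scaffold of the LKB1 kinase (83.3% and 73.1%), and Ccni, cyclin I (83.0% and 91.5%). For Car10 the region was found in 3 of the 4 later lists, and for Ppil4, Cab39 and Ccni in none of them. On the Sham side, Gpd2, the mitochondrial glycerol-3-phosphate dehydrogenase, led with a coding region at 84.8% and 85.0%, and Oga, which removes O-GlcNAc from proteins, had one at 79.8% and 79.3%. Acbd5, Pnma8a and Hsph1 followed. In Acbd5 and Pnma8a the peaks of the 2 Sham lists did not overlap each other, so neither gene held a lost region.

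Along the transcript, the place of gained and lost regions was compared with that of all regions. The coding sequence (CDS) held 49.4% of gained regions (95% Wilson interval 46.9% to 52.0%) and 56.1% of lost regions (52.5% to 59.7%), the 3' UTR 32.8% (30.5% to 35.2%) and 29.9% (26.7% to 33.3%), the 5' UTR 6.66% and 6.28%, and non-coding exons 11.03% and 7.65%. Of all regions 53.1% lay in the CDS, above the interval of gained regions, and 30.97% in the 3' UTR. These intervals cover counting error over regions only. The sides of the mixed divisions ranged from 48.0% to 60.8% in the CDS and from 24.5% to 37.7% in the 3' UTR, so that the difference between gained and lost lay within what lists of different groups gave when mixed. The centre lay within 200 nt of the stop codon in 19.0% of gained and 18.9% of lost regions, against 18.3% of all regions and 25.02% of those in all 4 lists. Of the gained regions on coding transcripts 52.2% lay in the last exon and 15.3% in internal exons of 400 nt or more, and of the lost regions 43.2% and 15.7%.
A window of 101 nt on the region's centre held an RRACH site on the transcript strand in 82.9% of gained, 82.6% of lost and 82.6% of all regions, and in 87.7% of those in all 4 lists. GGACT, which is 1 of the forms of RRACH, was in 14.0%, 13.7%, 13.5% and 15.9% of these windows. The Sema3a and Epha4 regions shown above ranked at 75% or more in both lists. Among regions ranked so, GGACT was in 6.25% of 64 gained and 8.70% of 46 lost windows. In regions of all 4 lists ranked so, it was in 15.4% of 2139 windows. The gained and lost shares rest on few windows, and the mixed pairs were not compared at this rank.

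**Figure D2:**
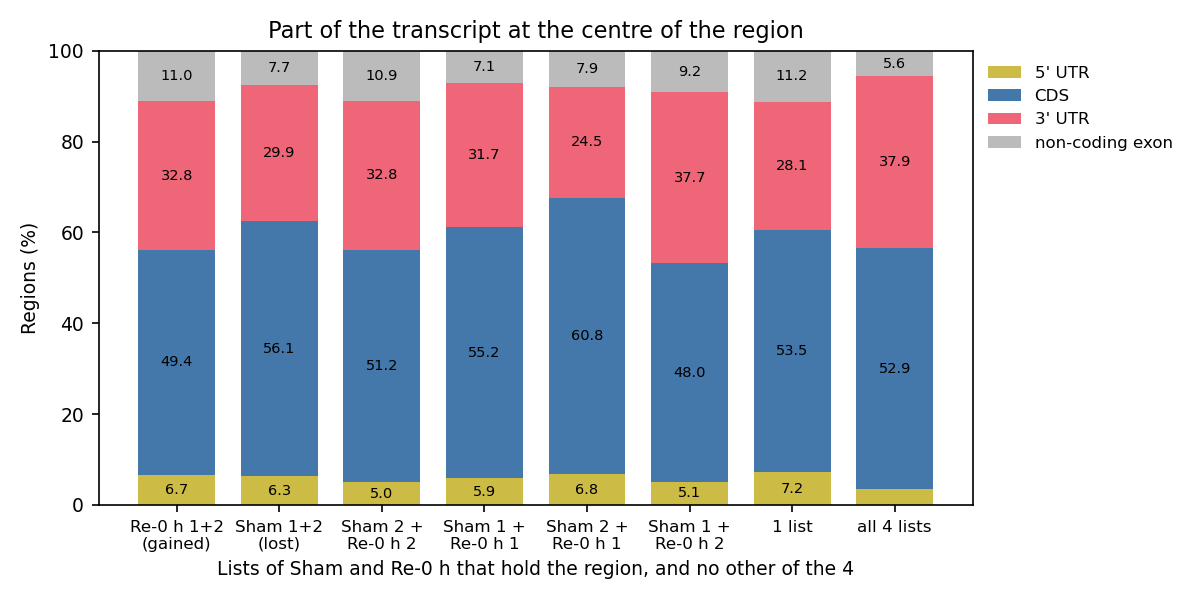
Share of regions (vertical axis, %) whose centre lay in the 5' UTR, the CDS, the 3' UTR or an exon of a non-coding transcript, for regions held by the named lists and no other of the 4. The CDS share was 49.4% in gained and 56.1% in lost regions, inside the range of the mixed pairs from 48.0% to 60.8%.

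Ranks of regions found in all 4 lists showed which marked transcripts stood higher or lower within the lists. Of the 6368 such regions, in 4122 genes, 1406 (22.1%) ranked higher in both MCAO/R-0 h lists than in both Sham lists and 735 (11.5%) ranked lower. With no overlap and at least 20 points between the mean percentiles, 527 (8.28%) were higher and 147 (2.31%) lower. By the mixed divisions 675 and 100, and 239 and 323 regions differed that much, so that the number by group lay between those of the mixed divisions. With lists of equal length 406 were higher and 306 lower. The median difference over all 6368 regions was 1.48 points.

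The largest difference was in the heat shock gene Hspa1a, which encodes the stress-inducible HSP70 chaperone. Its 3' UTR region, 287 nt past the stop codon (chr17:35188466-35188915), ranked at 6.04% and 17.5% in Sham against 90.5% and 80.2% in MCAO/R-0 h, a difference of 73.6 points. Both Sham values were low and both MCAO/R-0 h values high, without overlap. Later it was at 95.6% in 1 of the 2 MCAO/R-6 h lists, absent from the other, and at 86.7% and 89.4% in MCAO/R-24 h.
A second 3' UTR region of Hspa1a was gained (26.1% and 77.5%) and in all 4 later lists, while a coding region of the gene was lost (64.1% and 60.5%) and in none of them. The coding sequence of Hspa1a is nearly identical to that of Hspa1b and the authors removed reads with multiple matches, so values of this coding region are uncertain.
The salt-inducible kinase gene Sik1 was at 7.25% and 5.46% in Sham against 68.8% and 70.7% in MCAO/R-0 h, 60 nt past the stop codon. It stayed high in MCAO/R-6 h, at 85.2% and 78.01%, and was back at 0.0891% and 3.69% in MCAO/R-24 h. The remaining leading genes were Vwc2l, a secreted protein related to BMP antagonists (22.1% and 2.60% against 69.2% and 93.0%), Ctxnd1 (15.1% and 20.6% against 87.6% and 84.7%) and Nif3l1 (2.81% and 36.2% against 83.6% and 76.4%).

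The largest differences in the other direction were in Pde4dip, myomegalin, at 59.9% and 78.2% in Sham against 6.11% and 22.7% in MCAO/R-0 h. Eif5b, a translation initiation factor that joins the ribosomal subunits, was at 83.4% and 87.8% in Sham and at 11.9% and 51.8% in MCAO/R-0 h, 91 nt past the stop codon. Pdzd2 (79.8% and 88.1% against 14.1% and 57.2%), Unc13b, the vesicle-priming protein Munc13-2 (64.0% and 84.6% against 6.46% and 46.7%), and Gmeb1, a DNA-binding modulator of glucocorticoid responses (75.5% and 75.1% against 25.4% and 31.6%), completed the 5. In Eif5b, Pdzd2 and Unc13b the 2 MCAO/R-0 h values were themselves far apart. All of these but Pde4dip, found in 3, were present in all 4 later lists.

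**Figure D3:**
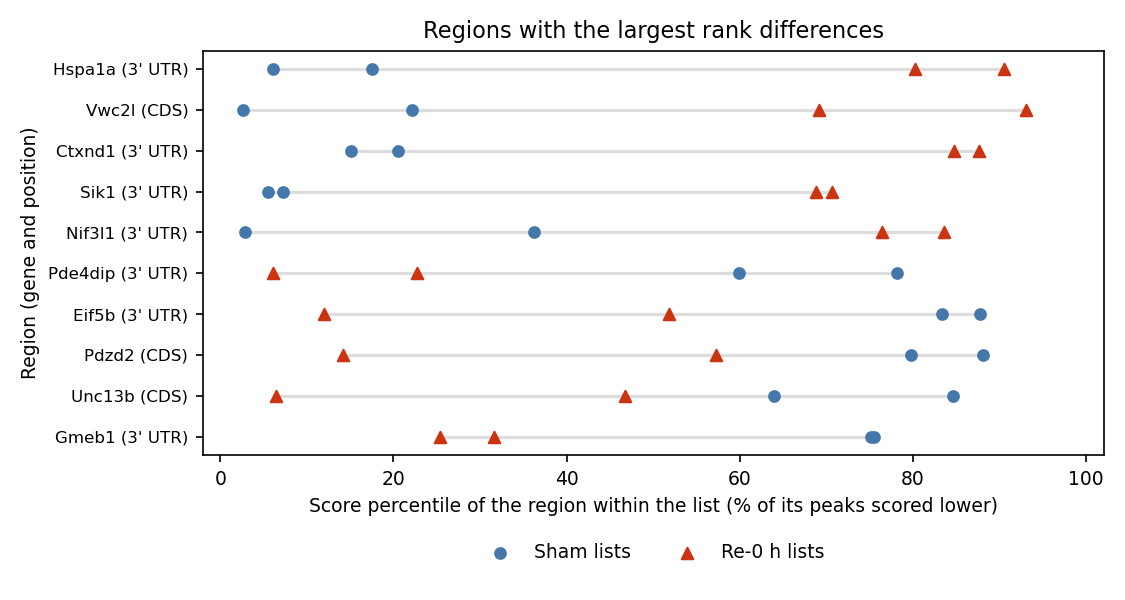
Score percentile within the list (horizontal axis, % of the peaks of that list scored lower) for the 5 regions with the largest difference in each direction; circles are the 2 Sham lists and triangles the 2 Re-0 h lists. Hspa1a lies at 6.04% and 17.5% in Sham and at 90.5% and 80.2% in Re-0 h, and Pde4dip runs the opposite way.

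The immediate early genes are transcription factors and effectors switched on within minutes of stimulation without new protein. They had the largest median rank difference of the gene lists examined. These lists were chosen with earlier results of these data known. The next largest median difference, 14.0 points for endothelial and pericyte markers, rested on 1 region. Of the 43 immediate early genes listed 41 held a region, 136 in all. Of these regions 5 (3.68%) were gained and 3 (2.21%) lost, close to the 3.78% and 1.86% of all regions. Presence or absence thus did not set the list apart. The 26 regions found in all 4 lists lay in 21 genes, so some genes count more than once. By rank, however, 22 of the 26 (84.6%) had a higher mean in MCAO/R-0 h, against 59.7% of all 6368 regions. Without overlap 12 were higher and none lower, against 22.1% and 11.5% of all regions. At 20 points and without overlap, 9 were higher (34.6%, against 8.28% of all regions) and none lower, and the median difference was 14.2 points against 1.48 over all regions. Some of the few marker regions of astrocytes, oligodendrocytes, microglia, pericytes and blood cells also had a higher mean rank in MCAO/R-0 h. Their values are given below, and their part in the shift was not tested. By the mixed divisions 4 and 0, and 0 and 1 of the 26 differed that much, with medians of 2.74 and -0.66 points.
The median of the 26 percentiles was 66.8% and 76.3% in the Sham lists and 81.0% and 86.3% in the MCAO/R-0 h lists, and over all 6368 regions 74.7%, 79.6%, 77.98% and 82.7% in the same order. In MCAO/R-6 h, where 22 of the regions were found in each list, the median was 88.4% and 85.3%, against 82.0% and 83.0% over all regions. In MCAO/R-24 h, with 19 and 22 of the regions found, the median was 82.2% and 88.0%, against 81.3% and 83.4%. Fewer than the 26 regions enter these later medians. The size of the shift depended on single lists: the median difference was 4.96 points without MCAO/R-0 h replicate 2 and 8.90 without Sham replicate 1, against 0.368 and -0.02 over all regions. With the higher-scoring 50% of each list, which kept 14 of the regions, it was 4.46 points with 2 higher.

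The genes of the list that follow were chosen after their values were seen. Egr2, an activity-induced zinc finger factor, was at 3.30% and 18.5% in Sham against 59.3% and 68.2% in MCAO/R-0 h in its 3' UTR. It was at 61.4% and 73.6% after 6 h of reperfusion and absent from both MCAO/R-24 h lists. Ier2, a short nuclear protein, was at 2.43% and 21.0% against 42.9% and 69.6%, and also held a gained region in its coding sequence (50.4% and 50.5%).
Nr4a2, an orphan nuclear receptor, was at 67.9% and 27.5% against 81.2% and 85.8%, and Klf4, a Krüppel-like factor, at 77.97% and 60.8% against 93.6% and 94.2%. Fosb, an AP-1 subunit, was at 27.4% and 60.4% against 60.6% and 72.4%, where the second Sham value and the first MCAO/R-0 h value were nearly level. Klf10, the clock gene Per1 and Csrnp1 were the other 3 of the 9. Regions that already ranked near the top of the Sham lists, such as those of Bdnf (98.1% and 98.4%), Plk2 and Tiparp, had little room to move up and differed by less than 1 point. Jun, the AP-1 partner of Fosb, was the lowest of the 26, at 94.8% and 84.7% in Sham and 85.7% and 67.7% in MCAO/R-0 h, with overlapping values. Klf6 (58.2% and 71.2%), Gadd45b (26.5% and 42.3%), Zfp36 and Ier3 held the other gained regions, and Npas4, a neuronal activity factor, Nr4a3 and Ier3 the lost ones. Npas4 had 3 and 2 peaks in Sham and none in MCAO/R-0 h, its lost coding region at 23.7% and 23.2%. In Ier3 the gained and the lost region lay 25 nt apart.

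**Figure D4:**
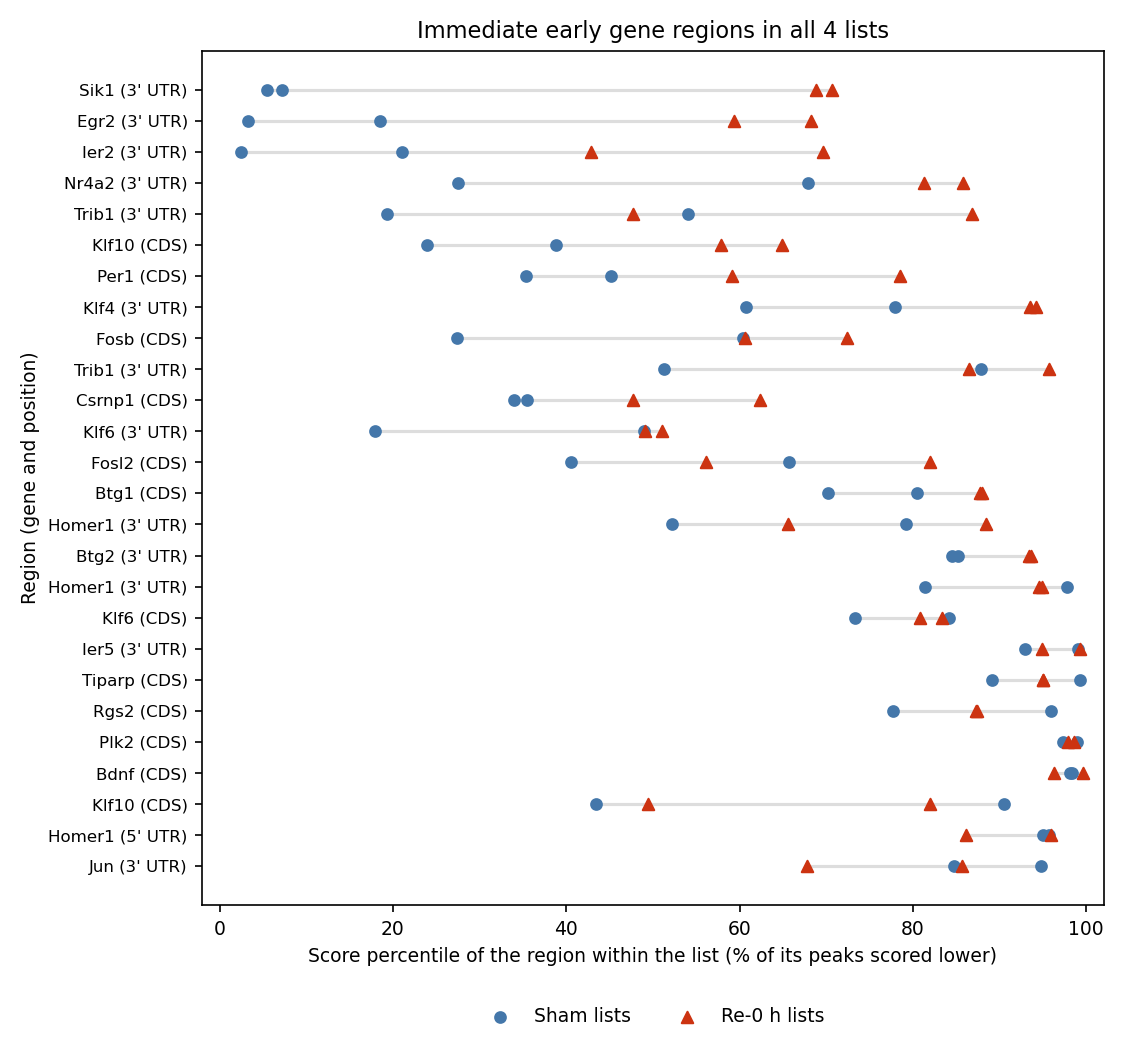
Score percentile within the list (horizontal axis) for the 26 immediate early gene regions found in all 4 lists, in order of the difference between group means; circles are the 2 Sham lists and triangles the 2 Re-0 h lists. In the upper rows, from Sik1 and Egr2 to Csrnp1, most triangles lie to the right of both circles, and regions near 100% in Sham stay there.

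Other stress lists had smaller median differences or none of their regions gained. Among 60 regions of heat shock and protein folding genes 3 were gained and 3 lost (5.00% each, against 3.78% and 1.86% of all regions). The mixed divisions gave 1 and 1, and 1 and 1. The median difference over the 7 in all 4 lists was -0.25 points, with Hspa1a the one region at 20 points. The co-chaperone Bag3 held a gained (19.6% and 52.3%) and a lost coding region (13.7% and 17.8%) only 50 nt apart, Dnaja4 a gained 5' UTR region (18.1% and 12.1%), and Hsph1, the HSP105 chaperone, a lost region (51.2% and 70.3%) and no MCAO/R-0 h peak. Of 59 regions of unfolded protein and integrated stress response genes 0 were gained and 2 lost (3.39%), against 2 and 0, and 2 and 2 by the mixed divisions. The lost ones were in Sel1l and in the eIF2α kinase gene Eif2ak4 (44.3% and 47.5%). Among 54 regions of hypoxia and glycolysis genes none was gained or lost, against 0 and 2, and 1 and 1 by the mixed divisions. The MAP kinase phosphatase and Sprouty list held 2 gained (3.17%) and 0 lost of 63 regions, against 0 and 1, and 2 and 0 by the mixed divisions. The gained ones were in Spry2 (64.8% and 56.8%) and Dusp10 (35.4% and 65.6%), which both dampen kinase signalling.

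Among synaptic and channel genes, glutamate receptor and scaffold genes held 7 gained and 7 lost of 214 regions (3.27% each, against 3.78% and 1.86% of all regions). The mixed divisions gave 6 and 8, and 3 and 6. Grin2b, the GluN2B subunit of the NMDA receptor, held a gained coding region at 85.4% and 89.4%, Grm3, a metabotropic receptor, one at 84.1% and 80.6%, and the kainate receptor gene Grik3 a lost 3' UTR region at 65.0% and 57.7% that was in all 4 later lists. In Grin3a 2 regions of the 3' UTR were gained and 1 of the coding sequence lost. The inhibitory synapse list held 2 gained and 2 lost of 64 regions. Gabrb2, the β2 subunit of the GABA-A receptor, lost a coding region (86.9% and 88.0%) found in all 4 later lists, and Nlgn2, a postsynaptic adhesion protein of inhibitory synapses, lost one of the 5' UTR (56.5% and 38.0%). Gad2, a GABA-synthesising enzyme without Sham peaks, gained a 3' UTR region (75.9% and 41.7%), and Slc12a2, the chloride importer NKCC1, a coding one (55.2% and 49.0%).
Voltage-gated channel genes held 7 gained and 4 lost of 322 regions (2.17% and 1.24%), against 9 and 11, and 6 and 13 by the mixed divisions. Beside Kcna2 these were led by Kcna3 (82.2% and 72.0%), found in all 4 later lists, Cacna1b, the N-type calcium channel (74.3% and 70.9%), found in none, and the lost region of Kcnh5 (88.4% and 62.5%). Calcium handling genes held 2 gained and 3 lost of 120 regions, with the sodium-calcium exchanger Slc8a1 leading among the lost (93.4% and 83.7%). An MCAO/R-0 h peak adjoined that region of Slc8a1. Both lost regions of Ryr1, a calcium release channel, lay in a gene with 4 and 3 Sham peaks and none in MCAO/R-0 h, while Itpr2 (19.5% and 68.3%) and the calpain inhibitor gene Cast (48.4% and 31.2%) held the gained ones. Among presynaptic genes, 2 gained and 4 lost of 168, Rims1 gained a coding region at 87.9% and 91.1%, and Pclo, Erc1 and Ppfia3, of the active zone, lost a region each (89.0% and 77.1%, 50.7% and 70.8%, 45.6% and 50.4%).

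Guidance and growth factor genes had more gained than lost regions, as all regions together did (3.78% gained and 1.86% lost). Axon guidance genes held 12 gained (4.48%) and 4 lost (1.49%) of 268 regions, against 11 and 6, and 5 and 1 by the mixed divisions. The gained regions included that of Sema3a and 3 in Plxna2, a semaphorin receptor, of which the highest was at 76.8% and 59.5%. Sema3c lost a region just past the stop codon (61.3% and 87.4%) and gained one farther down the 3' UTR (93.2% and 58.5%). Neurotrophin genes held 4 gained (12.9%) and 1 lost (3.23%) of 31 regions, against 3.78% and 1.86% of all regions. The mixed divisions gave 1 and 1, and 0 and 2. The gained ones were 3 in Ntrk3, the receptor of neurotrophin-3, led by one at 72.2% and 88.5%, and 1 in Ntrk2, the BDNF receptor (72.1% and 52.2%), and the lost one was in the 5' UTR of Sorcs3 (4.29% and 17.7%). Wnt pathway genes held 7 gained and 1 lost of 157 regions, against 7 and 2, and 2 and 5 by the mixed divisions. Apc, of the β-catenin destruction complex, held the lost one (81.2% and 91.0%), and Csnk1a1, a kinase of the same complex (77.4% and 72.9%), Bcl9l (65.9% and 46.3%) and Dvl1 (22.3% and 35.2%) held gained ones.
Protocadherin genes encode neuronal adhesion molecules whose clustered isoforms share their last exons. They held 20 gained (5.00%) and 9 lost (2.25%) of 400 regions, against 3.78% and 1.86% of all regions. The mixed divisions gave 29 and 8, and 8 and 11. The gained ones were led by Pcdhgb7 (90.9% and 93.2%), Pcdhgc5 (93.1% and 74.3%) and Pcdh10 (88.6% and 66.0%), with Pcdhga11 (60.3% and 73.6%) among the lost. Of the 72 protocadherin regions in all 4 lists 13 (18.1%) were higher at 20 points, against 8.28% of all regions. By the division that puts the replicates numbered 2 against those numbered 1, however, 14 were higher. Since isoforms of the cluster overlap, the gene given for these regions is uncertain.

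Genes of chromatin and of the m6A machinery held regions of both kinds. Histone-modifying enzyme genes held 21 gained (3.82%) and 12 lost (2.18%) of 550 regions, against 3.78% and 1.86% of all regions. The mixed divisions gave 18 and 17, and 16 and 16. Kmt2a, a histone H3 lysine methyltransferase, held 3 gained regions in its coding sequence. It lost one just past the stop codon (66.2% and 88.6%) that was found in all 4 later lists. Kmt2e gained a region at the stop codon (81.9% and 51.4%) beside the lost coding region shown above, and the acetyltransferase genes Kat6a (69.8% and 81.6%) and Kat6b (85.5% and 78.2%) each lost one found in no later list. Zinc finger genes named Zfp held 43 gained (3.16%) and 22 lost (1.62%) of 1360 regions, against 3.78% and 1.86% of all regions. The mixed divisions gave 58 and 13, and 23 and 46. Among the regions by group were those of Zfp386 (65.3% and 84.0%), Zfp974 (74.1% and 63.7%), Zfp638 (71.3% and 60.9%) and the lost region of Zfp644 (67.5% and 82.0%). The Zfp genes had 38 of 307 regions (12.4%) higher at 20 points, against 8.28% of all regions. By the division of replicates 2 against 1 they had 44.
Transcripts of m6A writers, erasers and readers held 3 gained and 3 lost of 89 regions (3.37% each, against 3.78% and 1.86% of all regions). The mixed divisions gave 3 and 2, and 1 and 0. Ythdc1, the nuclear reader, gained a coding region (94.98% and 90.2%) 25 nt from the nearest Sham peak, and Ythdf2, a reader that promotes decay, one at 67.9% and 61.0%. Prrc2a, a reader described in oligodendrocytes, lost one (51.7% and 68.5%). So did Mettl16, the methyltransferase of U6 RNA (42.4% and 48.4%), which had no MCAO/R-0 h peak. The lost region of Mettl16 was found in all 4 later lists. Of the 26 regions of this list in all 4 lists, Cbll1, a subunit of the writer complex, had one higher by 34.3 points (45.1% and 54.5% against 83.6% and 84.5%), and its partners Rbm15 (77.0% and 76.8% against 55.2% and 27.3%) and Rbm15b (84.0% and 83.4% against 34.4% and 79.6%) had one lower each. A second region of Cbll1 ranked lower without overlap (82.9% and 84.0% against 45.1% and 82.2%). Other regions of Rbm15 (95.3% and 93.4% against 96.2% and 95.4%) and Rbm15b (64.6% and 88.5% against 79.9% and 80.1%) did not rank lower. At 20 points without overlap 1 region (3.85%) was higher and 2 (7.69%) lower, against 8.28% and 2.31% of all regions. The mixed divisions gave 3 and 0, and 1 and 0. These 3 genes were chosen after their values were seen.

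Genes of cell death, immunity and autophagy were compared with the shares over all regions, 3.78% gained and 1.86% lost. The p53 target and cell death list held 4 gained (5.00%) and 3 lost (3.75%) of 80 regions, against 2 and 1, and 1 and 3 by the mixed divisions. Cdkn1a, the cell cycle inhibitor p21, held a gained 3' UTR region (18.3% and 35.4%) in a gene without Sham peaks, and the nuclease gene Aen 2 gained 3' UTR regions of which the higher was at 32.3% and 30.4%. Xiap, an inhibitor of caspases (76.5% and 78.2%), and Trp53inp1 (61.8% and 66.0%) each lost a coding region. Innate immune genes held 2 gained, in the adhesion molecule gene Icam1 (7.05% and 4.48%) and in Cish (0.615% and 1.29%), and 1 lost of 95, in Nfkbia, the inhibitor of NF-κB (66.1% and 59.6%). Autophagy and mTOR genes held 5 gained and 1 lost of 121, against 7 and 1, and 3 and 5 by the mixed divisions. Atg12 (59.0% and 85.8%), Atg13 (51.4% and 68.3%), the cargo receptor gene Sqstm1 (64.8% and 32.9%) and Rptor (12.3% and 12.2%) were among the gained. In the ferroptosis and antioxidant list, Nfe2l2, which encodes the antioxidant regulator NRF2, held the 1 gained region (39.2% and 69.9%), in all 4 later lists, and Srxn1, a gene of the same response, the 1 lost region (65.6% and 59.4%) of 50.

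Markers of the cell types of cortex were marked unevenly. Of 8 neuronal markers 1, 3, 4 and 4 held a peak in Sham replicates 1 and 2 and MCAO/R-0 h replicates 1 and 2, and Syt1 and Snap25 held none in any of the 4 lists. Astrocyte markers with a peak numbered 5, 3, 4 and 5 of 7 in the same order, with Aqp4 marked throughout and Gfap and Aldh1l1 in no list, oligodendrocyte markers 4, 2, 4 and 4 of 8, with Mag and Cnp in no list, and microglial markers 4, 4, 5 and 5 of 7, with Aif1 in no list. Endothelial and pericyte markers with a peak numbered 4, 5, 4 and 6 of 7. This list held 3 gained (10.3%) and 0 lost of 29 regions, against 3.78% and 1.86% of all regions. The mixed divisions gave 0 and 0, and 1 and 1. The gained ones were in Pecam1 (53.3% and 57.0%), which had no Sham peak, Flt1 (34.7% and 57.5%) and Pdgfrb (23.7% and 37.6%). The precursor marker Cspg4 (35.5% and 64.6%) and the microglial Cx3cr1 (50.6% and 39.8%) held 1 gained region each. Of the blood cell markers, S100a8, S100a9, Ly6g and Mmp8 held no peak, and the haemoglobin gene Hba-a1 held the only lost marker region (7.44% and 18.1%). Of marker regions in all 4 lists, 5 of 6 astrocyte, 1 of 2 oligodendrocyte and 2 of 2 microglial ones had a higher mean percentile in MCAO/R-0 h. The 1 vascular region, in the pericyte gene Pdgfrb, and the 1 blood cell region did too, against 59.7% of all regions. In this order the median differences were 5.96, 6.93, 10.9, 14.0 and 5.64 points, beside 14.2 for the immediate early genes. None reached 20 points without overlap. The division of replicates 2 against 1 gave 1.78, -3.58, -0.688, 46.7 and -7.91 points. The other mixed division gave -5.81, -6.87, -9.25, -4.10 and 6.76. An unmarked transcript is not shown to be absent, and the part of cell composition in the results above was not tested.

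The lists after 6 h and 24 h of reperfusion, which played no part in defining the regions, were used to see whether the same regions and ranks were found there. Gained regions were overlapped by a peak in 44.7% and 45.6% of cases in the MCAO/R-6 h lists and in 35.4% and 41.5% in the MCAO/R-24 h lists, a mean of 41.8% ± 4.62 (SD, n = 4 lists). For lost regions these values were 37.3%, 41.0%, 28.3% and 36.7%, a mean of 35.8% ± 5.37 (SD, n = 4 lists). The mixed divisions gave means of 42.9% and 32.4%, and 41.2% and 35.6%, the higher value each time on the side with MCAO/R-0 h replicate 2. Gained regions were thus recovered about as often as regions of the mixed pairs, and lost regions were recovered nearly as often as gained ones. With 1 list left out the mean ranged from 22.6% without MCAO/R-0 h replicate 1 to 53.4% without Sham replicate 2 for gained regions, and from 18.6% without Sham replicate 1 to 52.97% without MCAO/R-0 h replicate 2 for lost regions.
All 4 later lists held 144 gained regions (9.68%), those of Kcna3, Nfe2l2, Atg12, Bag3 and Pcdhgb7 among them, and none of the 4 held 339 (22.8%), those of Rbm25, Hecw1 and Cacna1b among them. Of the lost regions 47 (6.42%) were in all 4 later lists and 196 (26.8%) in none, Npas4, Slc8a1 and Sel1l among the latter.
Regions whose rank was at least 20 points higher in MCAO/R-0 h had medians of 38.8% and 44.9% in Sham and 74.0% and 78.7% in MCAO/R-0 h. Their medians in the 4 later lists were 69.0%, 73.7%, 67.2% and 73.0%. The 675 regions that ranked higher in the replicates numbered 2 had later medians of 69.4%, 71.7%, 66.2% and 73.9%, close to the values by group. The 147 regions at least 20 points lower had medians of 67.4% and 72.2% in Sham and 33.7% and 45.9% in MCAO/R-0 h. Their later medians were 61.8%, 62.8%, 63.5% and 64.1%, nearer to Sham. For the 100 regions lower in the replicates numbered 2 the later medians were 67.1%, 67.4%, 71.8% and 65.6%.

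**Figure D5:**
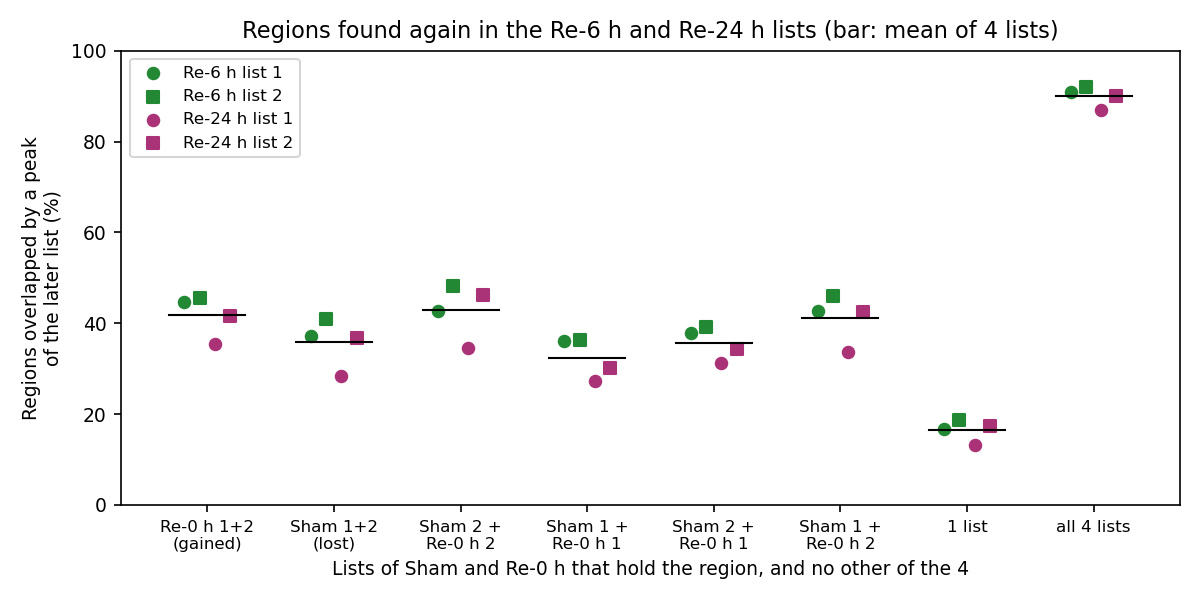
Share of regions (vertical axis, %) overlapped by a peak of each Re-6 h and Re-24 h list (points), with the mean of the 4 lists (bar), for regions held by the named lists and no other of the 4. Gained regions (mean 41.8%) and lost regions (35.8%) fall in the range of the mixed pairs, from 32.4% to 42.9%.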

How the data were processed

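MeRIP-seq peak lists of 2 Sham and 2 MCAO/R-0 h immunoprecipitation libraries were compared, with the 4 lists after 6 h or 24 h of reperfusion as later time points. Per the submitters' processing notes and methods, the authors used Trim Galore for trimming, HISAT2 for alignment to GRCm39 and SAMtools to drop reads without a unique match, and exomePeak2 for the peaks. Each peak carries a score that the authors deposited without defining its scale, used here only as the percentage of peaks in the same list that scored lower (percentile). The lists hold no read counts, so the depth behind a peak is unknown. Whether strand was used in peak calling is not given in the sources used here.

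Peaks, deposited as 1 genomic span each, were cut to the exons of the gene on their strand with the largest overlap (GENCODE M39) and merged where they had 1 exonic base or more in common, with Python 3.11.15, scipy 1.17.1 and matplotlib 3.10.9. Location was read at the exonic midpoint, in the order CDS, 3' UTR, 5' UTR, non-coding exon. The percentile of a region was that of its highest peak. Distances to the stop codon used 1 coding transcript for each gene. The steps were tested on simulated lists.

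Genes were named by rule: the 10 protein-coding genes with the highest gained and the 10 with the highest lost region by the lower of the percentiles in the 2 lists, the 5 largest rank differences each way, up to 4 members of each gene list, up to 5 genes with 3 or more regions, and 5 protein-coding genes each way with peaks in 1 group only. Other genes of the lists were named after their values were seen. A few genes that the rule or the marker lists hold are not reported here. The members, gene lists and rules were chosen with earlier results of these data known. Alternatives covered the joining of peaks, the length and threshold of the lists, the annotation, the rank difference and each list left out.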

Additional observations from a re-analysis of the deposited data

How the results depend on the processing

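The 2 lists of a group set the precision, and the depth behind a missing peak is unknown. Requiring 25 shared bases, joining whole spans or using exons of all transcripts left all counts of regions within 1.5 times. Pairing the lists by replicate number (replicate block), by counting regions that changed the same way in both same-numbered pairs, gave the same 2219 regions, since it asks for the same lists. No other result was run with the block. The labels do not say whether a number marks a shared batch. With the higher-scoring 50% of each list, 766 regions were gained and 359 lost, 1125 together, against 1058 and 892 by the mixed divisions. The CDS share was then 53.3% of gained and 60.2% of lost regions, the share within 200 nt of the stop codon 23.7% of gained regions, and the immediate early genes had a median rank difference of 4.46 points and 2 higher regions. Windows of 100 and 400 nt around the stop codon held 9.94% and 33.3% of gained and 9.12% and 31.1% of lost regions. At 10 points 936 regions ranked higher and 368 lower, and at 30 points 239 and 54. Ranks taken as the mean over peaks gave 251 lower regions and lists of equal length 306, where the cause was not tested.

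With 1 list left out, ranges were 2761 to 9584 gained, 1320 to 6229 lost and 8419 to 10904 together, 8383 to 10886 and 8196 to 10547 by the mixed divisions, 671 to 1358 regions higher and 301 to 703 lower in rank, by construction since single lists replace pairs. The CDS share ranged from 48.0% to 55.9% of gained and 52.6% to 59.2% of lost regions, the 3' UTR share from 26.6% to 34.5% and 25.9% to 34.0%, and the stop codon share from 16.1% to 20.7% and 15.3% to 20.3%. Recovery in later lists ranged from 22.6% to 53.4% and 18.6% to 52.97%. Immediate early genes had 7 to 12 higher regions and median differences of 4.96 to 14.95 points. The rank settings for immediate early genes and the ranks with lists of equal length were chosen after seeing the data.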

Other observations

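Long non-coding RNAs were not covered by the rule for named genes and were chosen after their values were seen. They held 121 gained regions (8.14%) and 37 lost regions (5.05%), against 6.75% of all regions and 8.10%, 4.67%, 5.60% and 6.82% on the sides of the mixed divisions. The highest gained regions were in Gm12359, at percentiles of 99.1% and 99.0% in MCAO/R-0 h with no Sham peak in the gene, and in Mir100hg, the host transcript of miR-100, at 95.2% and 96.8% and in all 4 later lists. The highest lost region was in Peg13, an imprinted brain transcript, at 91.7% and 93.3% in Sham. Gad1os, the transcript opposite the GABA-synthesising gene Gad1, lost 2 regions (76.8% and 83.9%, 76.5% and 83.5%) and had no MCAO/R-0 h peak. A lost region of Gm20481 (82.9% and 78.8%) spans part of the lost coding region of Hspa1a on the opposite strand, and reads of the 2 genes cannot be told apart if strand was not used.

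The window drawn from the gained region of Kcna2 was a simple repeat of GAAA without an RRACH site, and the 50-nt gained region of Rbm25 held no RRACH site either. Of the 10 leading gained regions 3, with that of Catspere2, held none, and of the 10 leading lost regions 1, in Sel1l.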
